A study of Mus musculus with 6 samples.

Results

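The 10 genes described here encode enzymes and regulators of the breakdown of the branched-chain amino acids leucine, isoleucine and valine. They are Bcat2, Bckdha, Bckdhb, Dbt, Bckdk, Ppm1k, Ivd, Mccc1, Hibadh and Hibch, and each was found on 1 of the 32479 rows of the deposited expression table. The genes were listed by symbol, with earlier results of these data known. The study sequenced messenger RNA from the hearts of 6 C57BL/6J mice, in 1 library each, labelled as primary cardiac fibroblasts. There were 3 Control mice and 3 mice given carbon tetrachloride (CCL4), a solvent that scars the liver, as a model of liver cirrhosis acting on the heart. No transgene or further genotype is named for either group. The sources used here do not give the dose, route or duration of CCL4, the sex or age of the mice, or how the cells were isolated. The labels number the libraries of a group 1 to 3.

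Branched-chain amino acids are broken down inside mitochondria. A transaminase first removes the amino group, and the branched-chain keto acid dehydrogenase complex then commits the carbon skeleton to oxidation. That complex is built from E1 alpha, E1 beta, E2 and E3 subunits. It is switched off when a kinase phosphorylates E1 alpha and switched on again when a phosphatase removes the phosphate. After the complex, leucine, isoleucine and valine follow separate arms that end in acetyl-CoA, acetoacetate or, by way of propionyl-CoA, succinyl-CoA. In heart muscle the pathway is known to be active, and mice that lack its phosphatase accumulate branched-chain amino acids and keto acids.

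Hibch, which encodes the hydrolase of the valine arm, was higher in CCL4 libraries, and Bckdha, which encodes the E1 alpha subunit, was lower. The call of Hibch held in 17 and that of Bckdha in 14 of 20 processing settings. Neither held without Control replicate 2 or without CCL4 replicate 3. No other gene of the 10 passed the test, which 31.8% of all tested rows passed. The fitted log2 fold changes of the 10 lay between -0.34 and 0.31. Of the 33 other pathway genes tested 3 rose and 8 fell, near the 9.64% and 22.2% of all tested rows that did. Those that fell included 4 of 6 further genes of the valine and isoleucine arms, and Klf15, which was at 44.0% of its Control mean. Klf15 is known from mouse heart and skeletal muscle as a transcriptional activator of branched-chain amino acid breakdown. Of the 4 arm genes, Acat1 kept its call in 17 of 20 settings and the others in all. The lists of other pathway genes were drawn up with earlier results of these data known.

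Cardiomyocyte markers were far more abundant than fibroblast markers in these libraries, against the cell type they are labelled with. Summed over 18 cardiomyocyte markers the level was 16653 to 20535 FPKM in Control and 23261 to 25214 FPKM in CCL4 libraries. FPKM counts fragments per kilobase after scaling for library size, and so is a level per length. Summed over 12 fibroblast markers it was 491.6 to 786.2 FPKM in Control and 643.7 to 658.7 FPKM in CCL4 libraries. Of the cardiomyocyte markers 3 rose and none fell, led by Actc1, the cardiac actin. Of the fibroblast markers 7 rose and none fell, where 9.64% of all tested rows rose and 22.2% fell. Of the 12 fibroblast markers 9 had a fitted log2 fold change above 0 and 3 below it. Gsn (-0.18) and Dcn (-0.29) were among those below and were not called. Markers of endothelial cells (208.8 to 243.1 FPKM), mural cells (173.8 to 255.5 FPKM) and macrophages (138.6 to 178.0 FPKM) were present in every library. Of those tested, 1 of 9 endothelial, 3 of 8 mural and 1 of 7 macrophage markers rose and none fell. All 5 erythroid markers rose, with a summed level of 537.0 to 2268 FPKM in Control and 2231 to 4092 FPKM in CCL4 libraries. The most abundant markers were Mb and Actc1 for cardiomyocytes, Gsn and Dcn for fibroblasts, Fabp4 and Cdh5 for endothelial cells, Rgs5 and Acta2 for mural cells, Lyz2 and C1qb for macrophages, and Hbb-bs and Hba-a1 for red cells. The part of cell makeup in the results below was not tested. In such bulk samples fewer cells of a type and less RNA per cell cannot be told apart.

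Groups were compared with limma on log2(FPKM + 1) over the 10995 rows with a mean of at least 1 FPKM, with Benjamini-Hochberg adjustment over all of these rows and a call at an adjusted p under 0.05. All 10 genes were tested. Of them 1 was called higher and 1 lower, where 9.64% of all tested rows were called higher and 22.2% lower (31.8% in either direction). Over all rows 1060 were called higher and 2441 lower, a split that was 617 and 4221 as TPM, 1700 and 1605 with TMM scaling, and 799 and 3122 with mitochondrial rows removed. Called genes were no more frequent among the 10 than among all rows. The fitted difference was below 0 for 9 of the 10 genes and for 62.6% of all tested rows, and with TMM, median-ratio or quantile scaling Bcat2, Bckdk and Mccc1 were also above 0. The median log2 fold change was -0.12 over the 10 genes and -0.087 over all tested rows. Levels of the 3 CCL4 libraries lay wholly below those of the 3 Control libraries for 4 of the 10 genes and wholly above them for 1, where 34.0% and 14.7% of all tested rows did so. P-values measure the spread between these libraries.

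**Figure D1:**
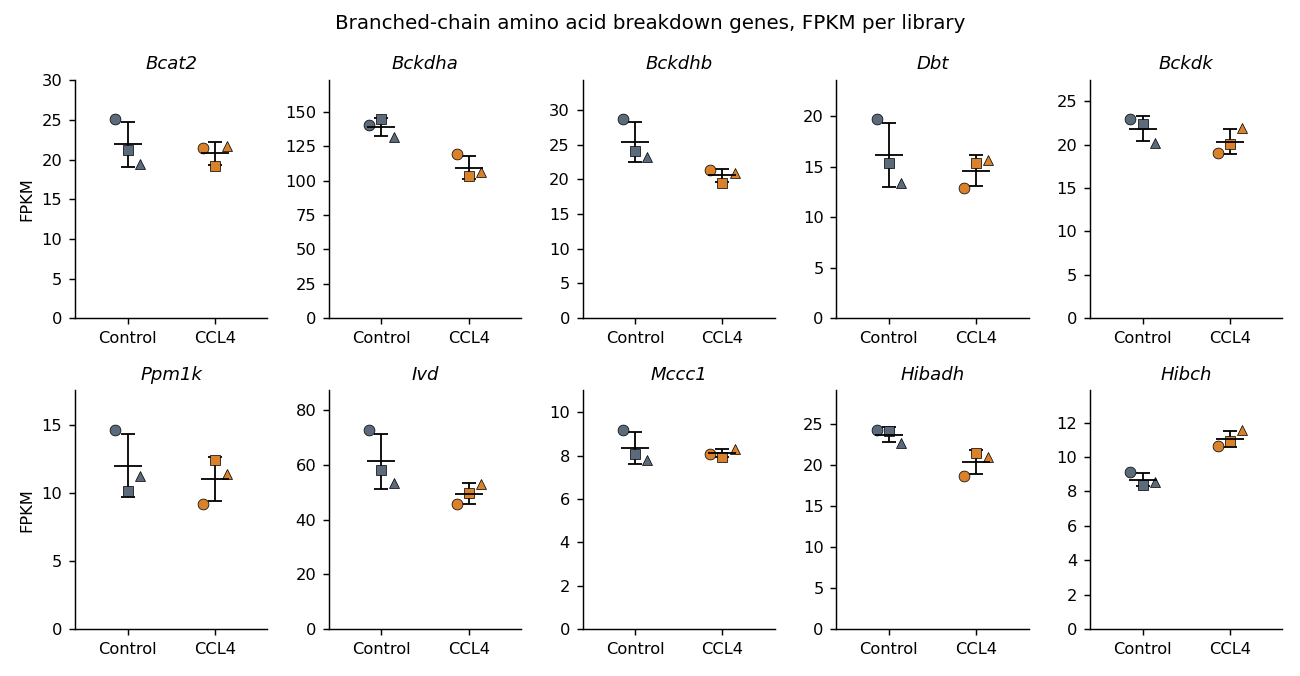
Level of each of the 10 genes in FPKM (vertical axes from 0) in the 3 Control and the 3 CCL4 libraries. Circles, squares and triangles are replicates 1, 2 and 3, and the bar and whiskers are the mean and SD. The groups do not overlap for Bckdha, Bckdhb, Ivd and Hibadh, lower in CCL4, and for Hibch, higher in CCL4.

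Promoter stretches are shown for Hibch, Hibadh and Ivd, since the groups did not overlap for these 3 genes and their windows reach well outside annotated exons, which those of Bckdha and Bckdhb do not. Of all tested rows, the groups also did not overlap for 34.0%, lower in CCL4, and for 14.7%, higher in CCL4. Hibch and Hibadh encode successive enzymes of the valine arm. Hibch was called higher, and Hibadh and Ivd were not called. Sequences are those of RefSeq on GRCm38.p6, written 5′ to 3′ on the strand of the gene and ending before the first base of any GENCODE M21 exon. Capitals mark CACCC or its complement on the other strand, the letters that Krüppel-like factors such as KLF15 are known to bind. The stretch of Hibch is chr1:52844788-52844928 on the plus strand, that of Hibadh chr6:52640390-52640550 on the minus strand, and that of Ivd chr2:118861744-118861953 on the plus strand.
Hibch: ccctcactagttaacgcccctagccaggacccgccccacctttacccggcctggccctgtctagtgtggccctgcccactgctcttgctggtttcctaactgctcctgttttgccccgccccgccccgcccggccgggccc
Hibadh: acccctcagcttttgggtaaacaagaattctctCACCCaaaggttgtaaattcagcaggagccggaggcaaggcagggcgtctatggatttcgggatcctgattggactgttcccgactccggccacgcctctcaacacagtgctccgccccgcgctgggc
Ivd: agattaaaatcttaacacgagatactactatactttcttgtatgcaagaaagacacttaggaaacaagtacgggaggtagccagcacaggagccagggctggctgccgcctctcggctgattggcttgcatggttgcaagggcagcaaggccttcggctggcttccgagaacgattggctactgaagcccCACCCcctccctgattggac

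A promoter window of 300 bases, from 250 before to 50 after the RefSeq start, was matched for 9 of the 10 genes, all but Dbt. CACCC, searched on both strands, stood in 6 of these 9 windows and in 57.52% of all 32851 windows. The 6 were those of Bcat2, Bckdhb, Bckdk, Ivd, Mccc1 and Hibadh, none of them called. For Bcat2, Bckdk and Mccc1 the groups overlapped, and for Bckdhb, Ivd and Hibadh they did not. Any part of the motif in these levels was not tested. The windows of Bckdha, Ppm1k and Hibch held none. Stretches of Bckdk, Ppm1k and Mccc1 outside exons exist too and are not shown. AAGGTCA, a half-site bound by ERR nuclear receptors, stood in 0 of the 9 windows and in 4.718% of all windows. These are matches of letters in a short window.

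The level of the 10 genes spanned a wide range within a library. Bckdha was the most abundant in both groups, averaging 139.2 ± 6.45 FPKM (SD, n = 3) in Control and 109.6 ± 8.38 FPKM (SD, n = 3) in CCL4 libraries. Its mean over all libraries lay at the 97.89th percentile of tested rows. Ivd came next, at the 95.53rd percentile, and the libraries of these 2 genes did not overlap with each other or with the next gene in either group. Bckdhb, Hibadh, Bcat2 and Bckdk formed a band between 18.67 and 28.61 FPKM in which neighbours in the order overlapped in both groups. Dbt, Ppm1k, Hibch and Mccc1 were lowest. Mccc1 had 7.79 to 9.18 FPKM across the 6 libraries and lay at the 70.13th percentile. Hibch was ninth in Control and eighth in CCL4 libraries, and its libraries overlapped with those of Mccc1 in Control and with those of Ppm1k in CCL4.

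The first step is catalysed by the transaminase of mitochondria, Bcat2, which passes the amino group to 2-oxoglutarate. Bcat2 was at 25.07, 21.23 and 19.51 FPKM in Control replicates 1, 2 and 3 and at 21.48, 19.16 and 21.72 FPKM in CCL4 replicates 1, 2 and 3. The groups overlapped, and Control replicate 1 was the highest library. The log2 fold change was -0.069 ± 0.10 (SE), with a 95% confidence interval from -0.31 to 0.17 and a limma adjusted p of 0.636. The cytosolic transaminase Bcat1 was near the lower end of detection, at 0.05 to 0.12 FPKM in the 6 libraries, and was not tested. Dividing Bcat2 by Bcat1 gave 306.4 ± 102.4 for Control and 284.3 ± 133.5 for CCL4 (mean and SD over 3 libraries; exact two-sided permutation test, p = 0.7). Slc25a44, the carrier that brings branched-chain amino acids into mitochondria, was at 4.83 ± 0.106 and 5.03 ± 0.877 FPKM and was not called (log2 fold change 0.037, limma adjusted p = 0.815).

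The dehydrogenase complex held the 1 gene that fell. Bckdha, the E1 alpha subunit that carries the regulatory phosphate, was at 140.88, 144.57 and 132.02 FPKM in Control replicates 1 to 3 and at 119.14, 103.50 and 106.08 FPKM in CCL4 replicates 1 to 3. Every CCL4 library was below every Control library, and the CCL4 mean was 78.7% of the Control mean. The log2 fold change was -0.34 ± 0.08 (SE; 95% confidence interval -0.54 to -0.15; limma adjusted p = 0.0168). The call was lost with TMM (-0.24, adjusted p = 0.115), median-ratio (-0.23, adjusted p = 0.120) and quantile scaling (-0.20, adjusted p = 0.0824). Leaving out Control replicate 2 (0.0618), CCL4 replicate 2 (0.0646) or CCL4 replicate 3 (0.0703) also took the limma adjusted p past 0.05. Over all settings its adjusted p ran from 0.00278 to 0.120, with a fold change below 0 in each.

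Bckdha lies on chromosome 7 at 25629946 to 25658981 on the minus strand of GRCm38 (GENCODE M21). There, 61.7% of its exonic length is shared with exons of B3gnt8, a glycosyltransferase gene on the opposite strand. B3gnt8 was at 1.98 to 2.43 FPKM in the 6 libraries. The libraries keep strand, but the sources used here do not state the strand setting of the quantification, so reads of the shared bases cannot be assigned with certainty. Smaller stretches are shared with noncoding or pseudogene annotations by Bcat2 (15.9% of its exonic length), Mccc1 and Hibadh, and those partners were at 0 to 0.36 FPKM where the table lists them.

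Bckdhb, the E1 beta subunit that pairs with E1 alpha, was at 28.61, 24.10 and 23.27 FPKM in Control and at 21.34, 19.52 and 20.89 FPKM in CCL4 replicates 1 to 3. The groups did not overlap, yet the difference missed the threshold (log2 fold change -0.28 ± 0.09, SE; 95% confidence interval -0.50 to -0.07; limma adjusted p = 0.0510). It passed in 6 of the 20 settings, counting the one reported here, with adjusted p between 0.0120 and 0.207 over all of them. Dbt, the E2 core that transfers the acyl group to coenzyme A, was at 19.67, 15.34 and 13.43 FPKM in Control and at 12.87, 15.32 and 15.62 FPKM in CCL4 replicates 1 to 3. Its groups overlapped, and the log2 fold change was -0.12 with a 95% confidence interval from -0.44 to 0.19 (limma adjusted p = 0.515).

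The E3 subunit is encoded by Dld and shared with the pyruvate and 2-oxoglutarate dehydrogenase complexes. Dld was at 99.34, 84.15 and 84.07 FPKM in Control and at 106.34, 106.78 and 114.25 FPKM in CCL4 replicates 1 to 3, every CCL4 library above every Control library. It rose by 0.29 ± 0.09 on the log2 scale (SE; limma adjusted p = 0.0389). The call was lost in 9 of 20 settings, among them those without Control replicate 2 (adjusted p = 0.123), Control replicate 3 (0.106), CCL4 replicate 1 (0.0707), CCL4 replicate 2 (0.0838) and CCL4 replicate 3 (0.134), and as TPM (0.297).

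Ratios within a library do not depend on how libraries are scaled. Bckdha exceeded Bckdhb by a factor of 5.53 ± 0.551 in Control and of 5.32 ± 0.253 with CCL4 (mean and SD over 3 libraries; exact two-sided permutation test, p = 0.7). Its factor over Dbt was 8.81 ± 1.44 in Control and 7.60 ± 1.43 with CCL4 (exact permutation test, p = 0.2). The smallest p that 3 against 3 libraries allow is 0.1. The groups overlapped in both ratios. The log2 difference (CCL4 minus Control) in Bckdha over Dbt was -0.21 with all libraries, -0.357 without Control replicate 1 and -0.365 without CCL4 replicate 1, and in both of these the remaining groups did not overlap (exact permutation p = 0.2 in each, the smallest such groups allow). Without Control replicate 2 or 3 the difference shrank to -0.159 and -0.128, and without CCL4 replicate 2 or 3 to -0.138 and -0.141 (exact permutation p = 0.4 in each).

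The regulators of the complex stayed within the spread of the libraries. Bckdk, the kinase that inactivates the complex, was at 22.91, 22.44 and 20.21 FPKM in Control and at 19.01, 20.14 and 21.94 FPKM in CCL4 replicates 1 to 3. Ppm1k, the phosphatase that reactivates it, was at 14.60, 10.16 and 11.21 FPKM in Control and at 9.20, 12.38 and 11.38 FPKM in CCL4 replicates 1 to 3. Both genes overlapped between groups and neither was called in any of the 20 settings. The log2 fold change of Bckdk was -0.098 (95% confidence interval -0.29 to 0.098; limma adjusted p = 0.408), and that of Ppm1k was -0.11 (95% confidence interval -0.44 to 0.22; limma adjusted p = 0.586).

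The level of the kinase over that of the phosphatase was 1.57, 2.21 and 1.80 in Control and 2.07, 1.63 and 1.93 in CCL4 replicates 1 to 3. Control averaged 1.86 ± 0.324 and CCL4 1.87 ± 0.225 (mean and SD over 3 libraries; exact two-sided permutation test, p = 0.9). The spread within each group was far wider than the difference between their means. Phosphorylation of the complex itself is not measured by RNA.

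**Figure D2:**
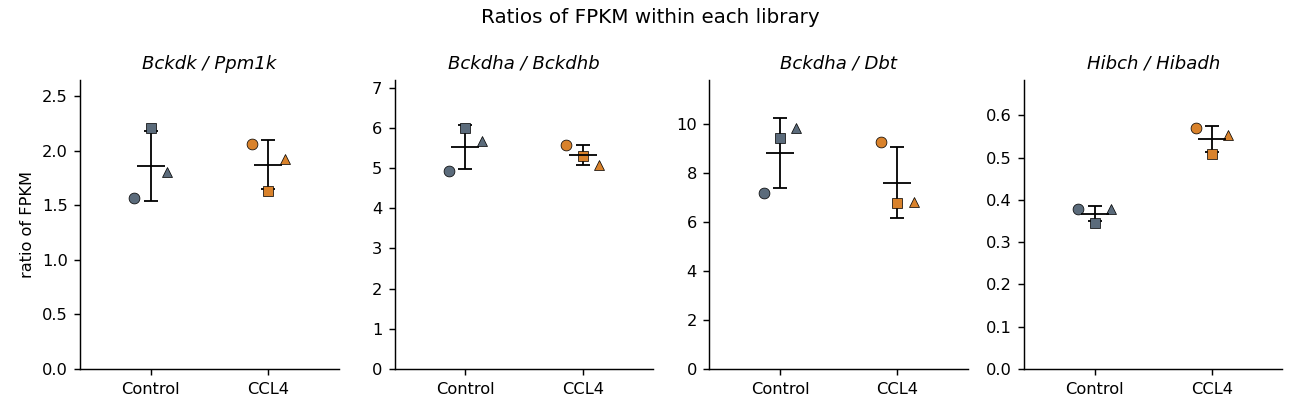
Ratio of FPKM within each library (vertical axes from 0) for the kinase over the phosphatase, E1 alpha over E1 beta, E1 alpha over E2, and Hibch over Hibadh. Circles, squares and triangles are replicates 1, 2 and 3, and bars are mean and SD. The first 3 ratios overlap between groups. Hibch over Hibadh is 0.347 to 0.379 in Control and 0.510 to 0.570 in CCL4 libraries.

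In the leucine arm neither of the genes named at the outset was called. Ivd, the isovaleryl-CoA dehydrogenase, was at 72.69, 58.03 and 53.39 FPKM in Control and at 45.51, 49.89 and 53.11 FPKM in CCL4 replicates 1 to 3. The groups lay apart by a narrow margin, since the highest CCL4 library was just under the lowest Control library. Its log2 fold change was -0.30 ± 0.12 (SE; 95% confidence interval -0.57 to -0.017; limma adjusted p = 0.0959), and it passed only as TPM among the 20 settings (-0.45, adjusted p = 0.0260). Ivd lies on chromosome 2 at 118861954 to 118882909.

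Mccc1, the biotin-carrying subunit of methylcrotonyl-CoA carboxylase, was at 9.18, 8.07 and 7.79 FPKM in Control and at 8.09, 7.95 and 8.30 FPKM in CCL4 replicates 1 to 3. The CCL4 libraries fell inside the Control range (log2 fold change -0.034; 95% confidence interval -0.22 to 0.15; limma adjusted p = 0.769). Its partner subunit Mccc2 was at 14.8 ± 1.18 and 16.5 ± 0.702 FPKM (SD, n = 3 each). It was not called (log2 fold change 0.15, limma adjusted p = 0.200). TMM, median-ratio and quantile scaling brought its adjusted p to 0.0397, 0.0407 and 0.0235. Auh, a hydratase of the leucine arm, was not called.

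In the valine arm Hibch and Hibadh act in turn. Hibch frees 3-hydroxyisobutyrate from coenzyme A, and Hibadh oxidises it to methylmalonate semialdehyde. Hibch was at 9.14, 8.36 and 8.57 FPKM in Control and at 10.65, 10.93 and 11.56 FPKM in CCL4 replicates 1 to 3. Every CCL4 library was above every Control library, and the CCL4 mean was 127.1% of the Control mean. Hibch rose by 0.31 ± 0.07 on the log2 scale (SE; 95% confidence interval 0.15 to 0.48; limma adjusted p = 0.0141). The call held in 17 of the 20 settings and was lost as TPM (0.18, adjusted p = 0.130). It was lost too when Control replicate 2 (0.29, adjusted p = 0.0533) or CCL4 replicate 3 (0.28, adjusted p = 0.0631) was left out. Hibch lies on chromosome 1 at 52844929 to 52920986.

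Hibadh was at 24.22, 24.13 and 22.62 FPKM in Control and at 18.67, 21.45 and 20.91 FPKM in CCL4 replicates 1 to 3. The groups did not overlap, but the log2 fold change of -0.21 ± 0.08 (SE; 95% confidence interval -0.39 to -0.026) had a limma adjusted p of 0.0777. It passed in 2 of the 20 settings, as TPM and with the mitochondrial rows removed. Hibadh lies on chromosome 6 at 52546228 to 52640389. The level of Hibch relative to Hibadh was 0.377, 0.347 and 0.379 in Control and 0.570, 0.510 and 0.553 in CCL4 replicates 1 to 3. This ratio was picked after the values were seen and is given as a description.

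Genes of the same arms outside the 10 were examined next. The lists used from here on, like the choice of the 10 genes, were drawn up with earlier results of these data known. Of 6 tested genes of the valine and isoleucine arms 4 fell and none rose, where 22.2% of all tested rows fell and 9.64% rose. Their median log2 fold change was -0.41, against -0.087 over all tested rows. Aldh6a1, the methylmalonate semialdehyde dehydrogenase that acts after Hibadh, was at 55.08, 53.01 and 49.28 FPKM in Control and at 28.15, 34.42 and 34.66 FPKM in CCL4 replicates 1 to 3. The groups were well apart, and it fell by 0.68 ± 0.10 on the log2 scale (SE; limma adjusted p = 0.00204).

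Hsd17b10, a dehydrogenase of the isoleucine arm, was at 88.46, 90.48 and 83.30 FPKM in Control and at 61.49, 59.06 and 58.80 FPKM in CCL4 replicates 1 to 3. It fell by 0.54 ± 0.07 (SE; limma adjusted p = 0.00145). Acadsb, the acyl-CoA dehydrogenase that opens the isoleucine arm, was at 23.3 ± 2.18 and 16.2 ± 1.39 FPKM (SD, n = 3 each) and fell by 0.50 ± 0.10 (SE; limma adjusted p = 0.00681). Aldh6a1, Hsd17b10 and Acadsb were called in all 20 settings. Acat1, the thiolase that ends the isoleucine arm and also serves ketone body use, was at 136.3 ± 2.57 and 108.3 ± 1.04 FPKM and fell by 0.33 ± 0.07 (SE; limma adjusted p = 0.00848). Its call was lost with TMM (adjusted p = 0.0595), median-ratio (0.0630) and quantile scaling (0.0799). Acad8, which opens the valine arm, and the hydratase Echs1 were not called.

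Downstream of these arms the propionate genes were mostly within the spread. Of 8 tested genes 1 rose and none fell, where 9.64% and 22.2% of all tested rows did. The carboxylase subunits Pcca and Pccb and the mutase Mmut were not called. Mmachc, which processes the cobalamin that the mutase needs, rose from 16.4 ± 1.73 to 21.6 ± 1.28 FPKM (SD, n = 3 each; log2 fold change 0.38, limma adjusted p = 0.0176). That call was lost as TPM (adjusted p = 0.113), without Control replicate 2 (0.0562), Control replicate 3 (0.0503), CCL4 replicate 2 (0.0564) or CCL4 replicate 3 (0.0711), and with the replicate number as a block (0.0501). Of 5 tested cofactor genes Lipt2, of lipoate attachment, rose from 1.75 ± 0.167 to 2.46 ± 0.149 FPKM (log2 fold change 0.33, limma adjusted p = 0.0171). Its call was lost in 6 of 19 settings, among them those without Control replicate 2 (adjusted p = 0.0608), CCL4 replicate 2 (0.0540) or CCL4 replicate 3 (0.0668).

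**Figure D3:**
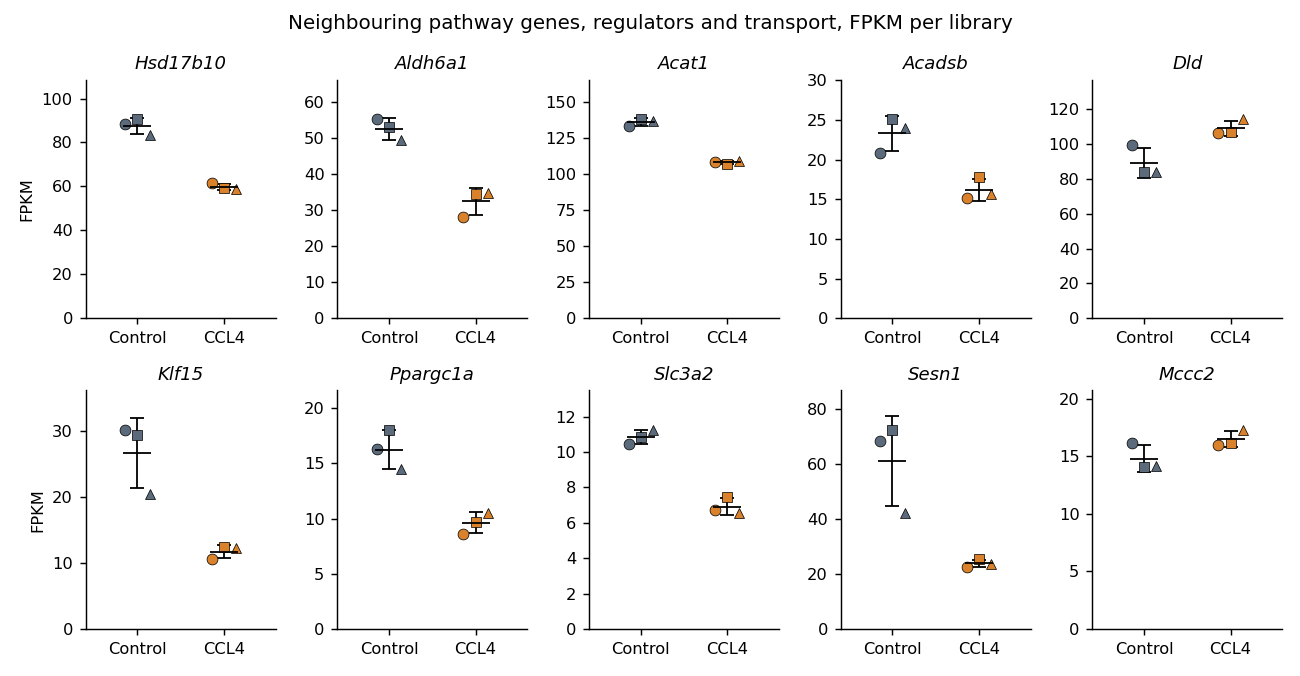
Level in FPKM (vertical axes from 0) of 10 pathway genes outside the named set, in the 3 Control and the 3 CCL4 libraries. Circles, squares and triangles are replicates 1, 2 and 3, and bars are mean and SD. The groups overlap for Mccc2 and are apart for the other genes shown, of which only Dld is higher in CCL4.

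Transcriptional regulators of the pathway were the next group. Klf15 was at 30.19, 29.42 and 20.52 FPKM in Control and at 10.55, 12.44 and 12.23 FPKM in CCL4 replicates 1 to 3. Control replicate 3 was lower than the other Control libraries but above every CCL4 library. Klf15 fell by 1.10 ± 0.15 on the log2 scale (SE; 95% confidence interval -1.44 to -0.77; limma adjusted p = 0.00142). Ppargc1a, a coactivator of mitochondrial oxidation genes, was at 16.26, 18.01 and 14.45 FPKM in Control and at 8.61, 9.73 and 10.50 FPKM in CCL4 replicates 1 to 3, and fell by 0.70 ± 0.10 (SE; limma adjusted p = 0.00223). Both were called in all 20 settings. The nuclear receptors Ppara (limma adjusted p = 0.103), Esrra (0.827) and Esrrg (0.579) were not called. Thus 2 of 5 regulators fell and none rose, where 22.2% of all tested rows fell and 9.64% rose. Ppara passed without Control replicate 3 (adjusted p = 0.0251) and as TPM (0.0309).

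At the cell surface, leucine enters through a transporter made of a light chain, Slc7a5 or Slc7a8, and the heavy chain Slc3a2. Slc3a2 was at 10.45, 10.83 and 11.23 FPKM in Control and at 6.73, 7.44 and 6.53 FPKM in CCL4 replicates 1 to 3. It fell by 0.58 ± 0.08 on the log2 scale (SE; limma adjusted p = 0.00138), in all 20 settings. Slc7a5 was at 1.16 ± 0.259 and 1.08 ± 0.101 FPKM and was not called, while Slc7a8 and Slc43a1 were under the mean of 1 FPKM needed for a test. Of 3 tested transport genes 1 fell and none rose, where 22.2% of all tested rows fell and 9.64% rose.

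Sesn1 belongs to the sestrins, stress-induced proteins that bind leucine and restrain the growth kinase mTORC1. It was at 68.22, 72.18 and 42.10 FPKM in Control and at 22.46, 25.28 and 23.59 FPKM in CCL4 replicates 1 to 3. As with Klf15, Control replicate 3 was the lowest Control library and still above every CCL4 library. Sesn1 fell by 1.28 ± 0.18 (SE; limma adjusted p = 0.00201), in all 20 settings. It was the only sestrin tested, since Sesn2 and Sesn3 were under a mean of 1 FPKM.

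**Figure D4:**
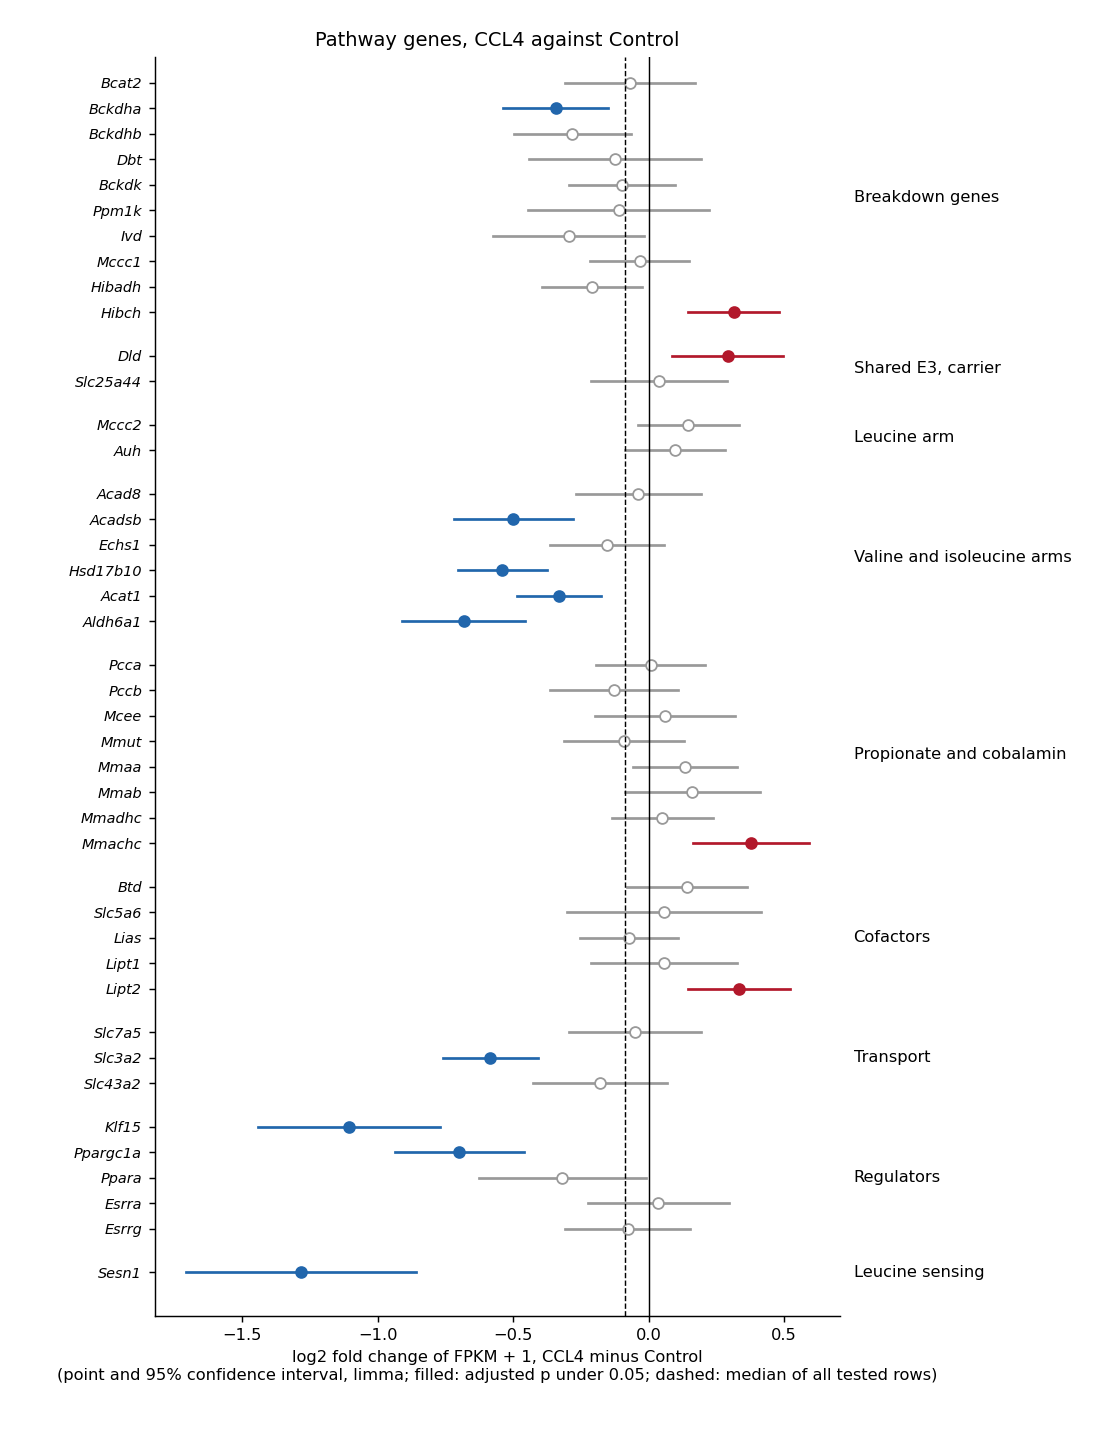
Log2 fold change (horizontal axis, CCL4 minus Control on the log2(FPKM + 1) scale) with its 95% confidence interval for the 10 genes, at the top, and for other tested pathway genes. Filled points passed an adjusted p of 0.05 in limma, blue lower and red higher in CCL4, and the dashed line is the median of all tested rows at -0.087. The 10 genes lie between -0.34 and 0.31, and Klf15 and Sesn1 lie below -1.

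Over all 33 tested pathway genes outside the 10, 3 rose and 8 fell, where 9.64% and 22.2% of all tested rows did. Their median log2 fold change was -0.049. The genes that rose were Dld, Mmachc and Lipt2. Those that fell were Aldh6a1, Hsd17b10, Acadsb, Acat1, Klf15, Ppargc1a, Slc3a2 and Sesn1. In both directions there were genes, such as Dld and Acat1, that also serve other pathways. The difference between the 10 genes and this wider list was not tested.

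Other mitochondrial genes give the setting of these values. Of 22 nuclear genes for mitochondrial proteins outside amino acid and fatty acid oxidation 4 rose and 2 fell, where 9.64% and 22.2% of all tested rows did. Their median log2 fold change was 0.059, against -0.087 over all tested rows. Their summed level was 1303 to 1488 FPKM in Control and 1371 to 1434 FPKM in CCL4 libraries, and the CCL4 libraries lay inside the Control range. The largest called rise was that of Cycs, cytochrome c, with a log2 fold change of 0.67 (limma adjusted p = 0.00292), and the largest called fall that of the prohibitin Phb2, with -0.48 (limma adjusted p = 0.00203). The summed level of the 10 branched-chain genes was 312.0 to 367.0 FPKM in Control and 280.2 to 291.5 FPKM in CCL4 libraries. Bckdha and Ivd make up much of that sum.

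The 10 genes varied together among the Control libraries. Control replicate 1 was the highest Control library for 9 of them and Control replicate 3 the lowest for 8, where Control replicate 1 was highest for 42.1% and Control replicate 3 lowest for 29.1% of all tested rows. This order was not particular to the 10 genes. The 22 nuclear mitochondrial genes summed to 1488, 1318 and 1303 FPKM in Control replicates 1 to 3, and the 8 propionate genes to 173.1, 149.0 and 144.8 FPKM. The 6 further valine and isoleucine genes were highest in Control replicate 2, at 344.9, 349.1 and 332.9 FPKM. Control replicate 1 also had the highest summed level of cardiomyocyte markers among the Control libraries, at 20535 FPKM, and of erythroid markers, at 2268 FPKM. The part of these in the levels of the 10 genes was not tested. Among CCL4 libraries replicate 3 was highest for 6 of the 10 and replicate 1 lowest for 6, where 34.4% and 54.0% of all tested rows did so. The count for replicate 1 was thus near the share over all rows. Without Control replicate 1 the fitted differences of Bcat2 (0.027), Dbt (0.018), Ppm1k (0.029) and Mccc1 (0.029) were above 0, and none of these 4 was called with or without it. The median over the 10 genes was then -0.023.

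**Figure D5:**
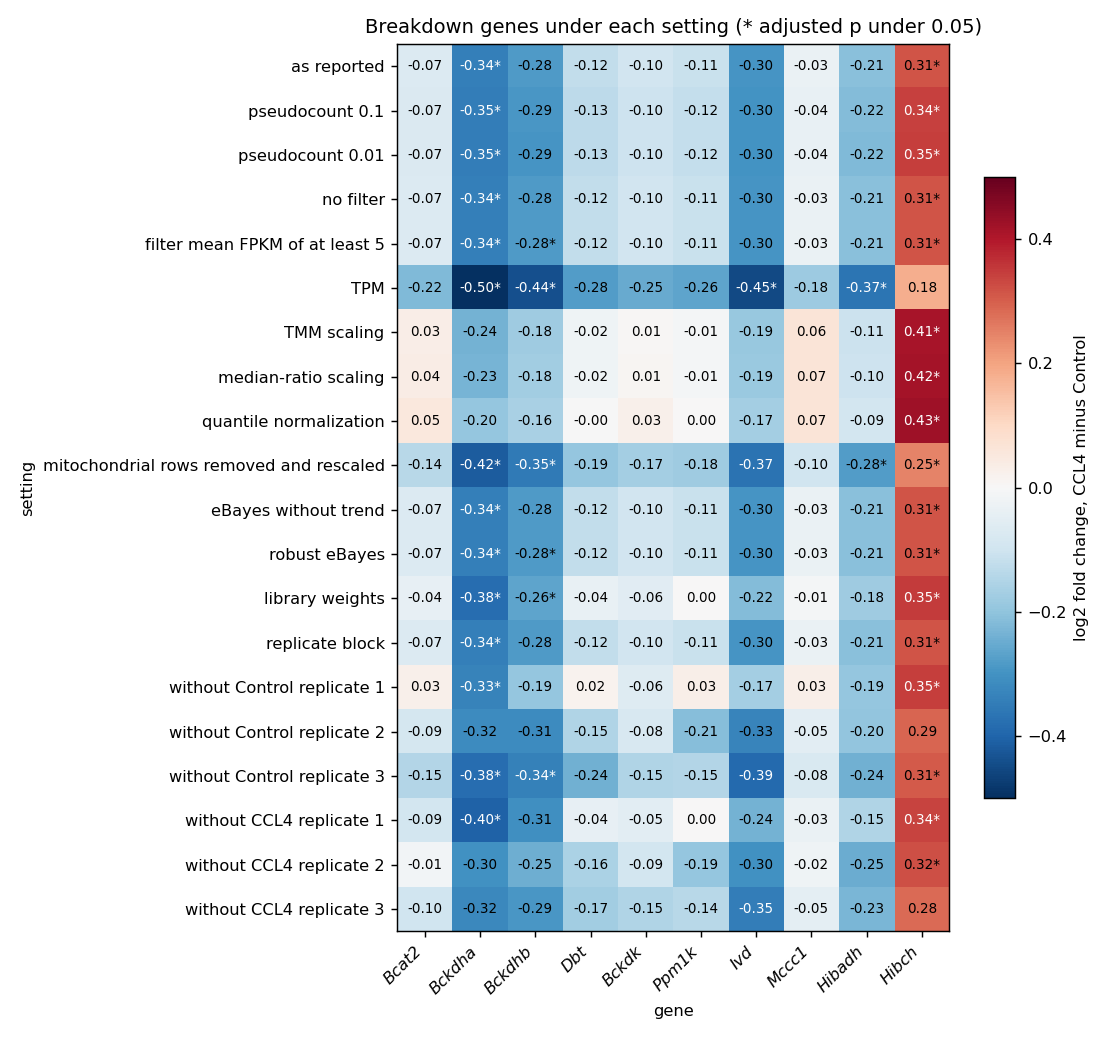
Log2 fold change (colour and printed value, CCL4 minus Control) of the 10 genes, in columns, under the reported setting and 19 alternatives, in rows. An asterisk marks an adjusted p under 0.05 in limma. Bckdha is below 0 and Hibch above 0 in every row, while Bcat2, Bckdk, Ppm1k, Mccc1 and Dbt lie near 0 and change sign in some rows.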

How the data were processed

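The authors deposited FPKM values, 1 column per library at 2 decimals. They were made with StringTie 2.1.6 on GRCm38, per the submitters' processing notes. Neither aligner nor annotation release, filters or strand setting is stated there. Low values lay near whole fragments in at most 30.5% to 35.2% of cases per library, against 20% if spread evenly, so the depth behind each value is unknown and no count test was run. FPKM summed to 519609 to 542738 in Control and 588660.5 to 602763 in CCL4 libraries, so the groups did not overlap. Mitochondrial transcripts made up 48.6% to 50.7% of the sum in Control and 52.0% to 53.2% in CCL4 libraries.

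Rows averaging 1 FPKM or more were tested on log2(FPKM + 1) with limma 3.58.1 in R 4.3.3 (trend, two-sided, no covariate). The fit was also run on simulated data in which 200 of 10995 rows were changed. It called 68% of the 1.5-fold and 90% of the 2-fold changes. Smaller changes, such as those of the 10 genes, were not simulated. Fold changes on this scale understate those of low genes. Ratios were compared by exact permutation tests (scipy 1.17.1). Positions are from GENCODE M21 and promoters from RefSeq. Named were the 10 genes, every called gene of the other pathway lists, Klf15, Bcat1, Slc25a44, Dld and Mccc2, the mitochondrial genes with the largest called rise and fall, and the top 2 genes of each cell type list. The uncalled Auh, Acad8, Echs1, Pcca, Pccb, Mmut, Ppara, Esrra, Esrrg and further transport genes are named to describe their lists; 1 further pathway gene is counted but not reported here. Genes, lists and tests were chosen with earlier results of these data known. Alternatives covered pseudocounts of 0.1 and 0.01, filters, scalings, limma options, the replicate number as a block and leaving out each library.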

Additional observations from a re-analysis of the deposited data

How the results depend on the processing

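Limits: depth is unknown, 3 libraries per group make small differences hard to call, and the balance of directions depends on scaling. Over all tested rows the calls numbered 1060 higher and 2441 lower (30.3% higher, median log2 fold change -0.087). They were 617 and 4221 as TPM (12.8%, median -0.23), 1700 and 1605 with TMM (51.4%), 1713 and 1574 with median-ratio scaling (52.1%), 1722 and 1641 with quantile normalization (51.2%), 799 and 3122 with the mitochondrial rows removed (20.4%), and 655 and 1510 among rows averaging 5 FPKM or more. Leaving out 1 library gave 631 to 1152 higher and 1549 to 2108 lower. The FPKM sum, which TPM makes equal between libraries, was higher in every CCL4 library than in every Control library. The cause of these shifts in the calls was not tested, other than that fewer rows or fewer libraries enter some of these fits.

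Of the 10 branched-chain genes 1 was called higher and 1 lower. It was 0 and 4 as TPM, 0 lower with TMM, median-ratio or quantile scaling, 3 lower with the mitochondrial rows removed, and 2 lower among rows averaging 5 FPKM or more, with robust variances or with library weights. Leaving out 1 library gave 0 to 1 higher and 0 to 2 lower, with 0 and 0 without Control replicate 2 or without CCL4 replicate 3. Of the other pathway genes 3 were called higher and 8 lower. The higher count was 1 with no filter. As TPM 0 were higher and 11 lower, and with TMM, median-ratio or quantile scaling 4 were higher and 7 lower. Leaving out 1 library gave 0 to 3 higher and 8 to 9 lower.

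With the replicate number as a block, 861 rows were higher and 1790 lower, the 10 genes again had 1 and 1, and the other pathway genes 0 higher and 8 lower. Deviations of same-numbered libraries correlated at -0.064, 0.046 and -0.038, against -0.097 to 0.12 for libraries of different number. These values give no sign of pairing, but cannot show that same-numbered samples shared no batch or handling.

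Genes near 0 changed sign. With TMM, median-ratio and quantile scaling Bcat2 was at 0.0346, 0.0372 and 0.0536, Bckdk at 0.00586, 0.00848 and 0.0261, and Mccc1 at 0.0631, 0.0655 and 0.0657. Ppm1k was at 0.000409 with quantile normalization and 0.00224 with library weights. Leaving out 1 library, Bcat2 ran from -0.146 to 0.0269, Dbt from -0.241 to 0.0184, Ppm1k from -0.213 to 0.0290 and Mccc1 from -0.0766 to 0.0293. The log2 ratio between groups then ran from -0.098 to 0.15 for Bckdk over Ppm1k, from -0.13 to 0.00859 for Bckdha over Bckdhb, from -0.365 to -0.128 for Bckdha over Dbt, and from -0.52 to 0.12 for Bcat2 over Bcat1.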
